A study of Mus musculus with 12 samples.

Results

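Hemisection of the lumbar cord in wild-type (WT) mice was compared with laminectomy alone, 4 days after surgery, with each mouse's cord on its own Affymetrix Mouse Exon 1.0 ST array. The comparison used every array of this genotype: 3 WT injured and 3 WT sham arrays, of 12 arrays in the series. The other 6 arrays came from EphA4 knockout mice and entered only 1 alternative fit. EphA4 is a receptor tyrosine kinase that guides growing axons, and the WT mice were littermates of the knockouts on a C57/BL6 background. WT injured mice received a left hemisection of the spinal cord at the T13-L1 vertebral level. WT sham mice had the vertebral lamina removed and the cord left intact. RNA came from the left side of a 6 mm length of cord, centred on the lesion site. The sources differ on which side this was: the methods give it as the injured side, whereas 1 label calls the left side uninjured. WT injured 1 and 3 were males of 10 weeks and WT injured 2 was a female of 14.5 weeks, while WT sham 1 and 2 were males and WT sham 3 was a female, all of 10 weeks. RNA of WT injured 2 and 3 and of WT sham 1 was extracted in the first batch, and RNA of WT injured 1 and of WT sham 2 and 3 in the second. The expression of Y-linked genes matched the labelled sex in all 6 arrays.

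A transecting lesion opens the blood-spinal cord barrier, kills cells at the site and draws blood-borne monocytes into the tissue over the first days. Resident microglia and infiltrating macrophages clear myelin and red cell debris, astrocytes around the lesion enlarge and raise intermediate filament genes, and fibroblasts and vessel-associated cells lay down matrix in the core. Neurons whose axons are cut can switch on a growth programme, and the synapses around them can be lost. In a whole piece of cord, fewer cells of a type, less RNA per cell and dilution by other cells' RNA cannot be told apart.

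Values are log2 levels of genes, each the mean over the probesets (groups of probes to 1 exon region) that name only that gene, and a difference of 1 is therefore a 2-fold change. A gene was called when the Benjamini-Hochberg adjusted p of limma, over all 15830 genes, was under 0.05 and the fold change was at least 1.2. Of 15830 genes, 3894 were called (24.6%), with 1836 higher (11.6%) and 2058 lower (13%) in WT injured cords. The sizes were uneven. A change of at least 2-fold was reached by 626 of the genes called higher (3.95% of all genes) and by 26 of those called lower (0.164%). Between 4-fold and 8-fold there were 149 genes called higher and 1 called lower, with a further 32 called higher between 8-fold and 16-fold and 12 above that. The median difference over all genes was -0.10, and the median was 0.75 among genes called higher and -0.49 among genes called lower. The 3 WT injured arrays all lay above the 3 WT sham arrays for 2621 genes (16.6%) and all below them for 4221 genes (26.7%). The groups lay apart for 1834 of the 1836 genes called higher and 2051 of the 2058 called lower. Such separation therefore adds little to a call. The background against which each group of genes is read below is thus a small downward shift of the typical gene, with a long upward tail. When each array was centred on its own median, 1618 genes were called higher and 3386 lower, so that higher calls made up 32.3% of all calls in place of 47.1%. Without WT injured 3 the number of genes called was 2286, and the number called lower was 957. Without WT injured 1 the number called lower was 1277. The count of genes at least 2-fold lower was 47 without WT injured 2 and 42 without WT sham 1. The p-values measure the spread over 3 mice in each group.

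**Figure D1:**
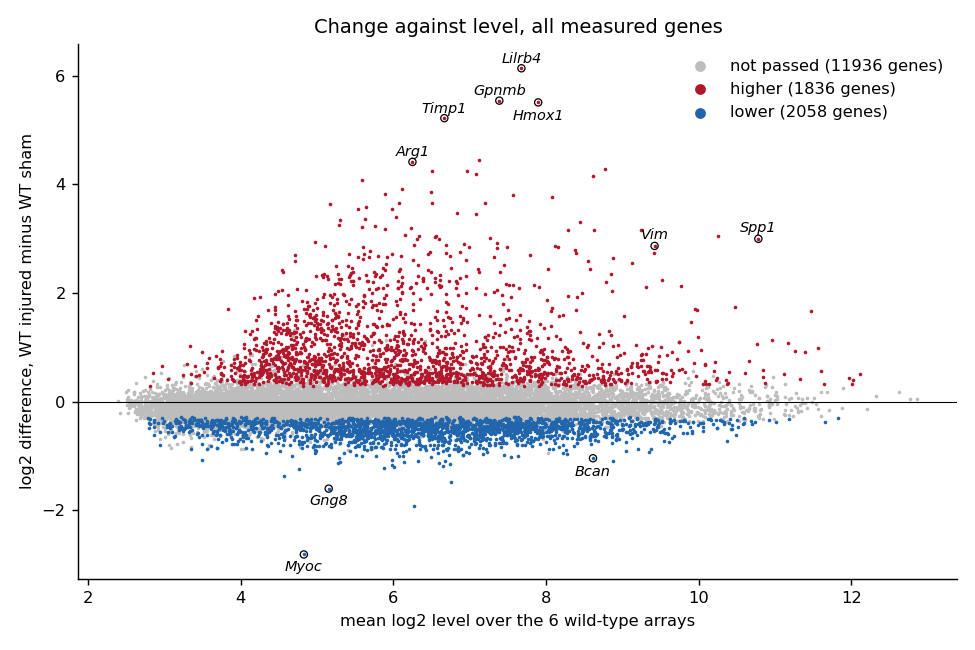
Each point is 1 of 15830 genes. The x axis gives the mean log2 level over the 6 wild-type arrays and the y axis the log2 difference, WT injured minus WT sham, with red for genes called higher, blue for genes called lower and grey for the rest. Rises reach 6.13, for Lilrb4, and the largest fall is that of Myoc at -2.81.

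The first principal component of the 6 arrays held 72.4% of the variance, and the groups lay far apart on it. WT injured 1, 2 and 3 scored 33.2, 25.2 and 36.3, against -32.7, -31.9 and -30.0 for WT sham 1, 2 and 3 (two-sided exact permutation p = 0.1, the smallest that 3 arrays against 3 can give). WT injured 2, the older female, lay nearest to the sham arrays. Changes were few among the dimmest genes. In the lowest of 4 equal groups by level, 70 were called higher and 219 lower of 3958. In the groups above it, in order of level, 658, 596 and 512 were called higher and 426, 684 and 729 lower. These groups held 3957, 3957 and 3958 genes. Higher calls were thus most frequent just above the dimmest group, and lower calls in the brightest. Genes called at least 2-fold higher numbered 3, 262, 229 and 132 from the dimmest group to the brightest. With the RNA extraction batch as a fixed term the number of genes called was 3165 (genes called higher 1610, genes called lower 1555). In 6 fits that each left out 1 array, 1279 of the genes called higher and 820 of those called lower stayed called the same way every time, and so did 613 of the 626 genes that were at least 2-fold higher.

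The largest rises were mostly of genes known from phagocytes, with Hmox1 and Timp1 among them. Gpnmb, a transmembrane glycoprotein of lipid-laden phagocytes, measured 10.16, 9.60 and 10.72 in WT injured cords, against 4.70, 4.41 and 4.74 in WT sham cords (log2 difference 5.54 ± 0.25 (SE), adjusted p = 4.9e-06). Hmox1, the inducible enzyme that splits haem, measured 11.15, 10.25 and 10.56 in WT injured cords, against 4.97, 5.13 and 5.34 in WT sham cords. Timp1, an inhibitor of matrix metalloproteinases made by reactive astrocytes and other cells, measured 9.53, 9.03 and 9.27 in WT injured cords, against 4.07, 3.83 and 4.28 in WT sham cords. Every WT injured array lay more than 4 log2 units above every WT sham array for these 3 genes, and all 16 Gpnmb probesets were higher. The next largest rises among genes with at least 2 probesets were C3ar1 (4.45), the receptor for complement fragment C3a; Arg1 (4.41), the arginase of alternatively activated macrophages; Lyz2 (4.28), lysozyme M of myeloid cells; Lgals3 (4.25), galectin-3; Ccl3 (4.25), a chemokine for monocytes; Ifi30 (4.18), a lysosomal thiol reductase; and Cd68 (4.15), a lysosomal membrane protein of macrophages. Lyz2 has a near-identical neighbour, Lyz1, so its signal may be shared. Arg1 measured 8.38, 7.96 and 9.03 in WT injured cords, against 3.90, 4.07 and 4.16 in WT sham cords (log2 difference 4.41 ± 0.24 (SE), adjusted p = 8.7e-06). The lowest injured value of Arg1 came from WT injured 2, which was also the lowest of the injured arrays for Gpnmb, Hmox1, Timp1, C3ar1 and Lgals3. The single highest rise on the array was Lilrb4, an inhibitory receptor of myeloid cells, at 6.13, measured by 1 probeset only.

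The largest falls were smaller and of mixed function. Myoc, myocilin, a secreted glycoprotein, measured 3.98, 3.14 and 3.14 in WT injured cords, against 5.42, 6.13 and 7.15 in WT sham cords (log2 difference -2.81 ± 0.41 (SE), adjusted p = 0.0018), and the sham arrays themselves were spread widely. Gng8, a G protein gamma subunit, fell by 1.602, and Hsd11b1, which regenerates active glucocorticoid, fell by 1.48. Next came Sptssb (1110032A04Rik on the array), a subunit of serine palmitoyltransferase, at -1.22; Uts2b (Uts2d on the array), a urotensin peptide, at -1.20; Flrt1, a leucine-rich repeat adhesion protein of neurons, at -1.19; Diras1, a Ras-like GTPase of the brain, at -1.15; Dao, D-amino acid oxidase of astrocytes, at -1.13; Aif1l, an actin-binding protein, at -1.13; and Mcf2, a guanine nucleotide exchange factor, at -1.11. The groups did not overlap for any of these 10 genes, which the choice of genes required. Igk-C, the immunoglobulin kappa constant region, was called lower at -1.93 from 1 probeset, but it stayed called in only 2 of the 6 fits that left out 1 array, and it was -3.05 within the first extraction batch and -0.77 within the second.

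**Figure D2:**
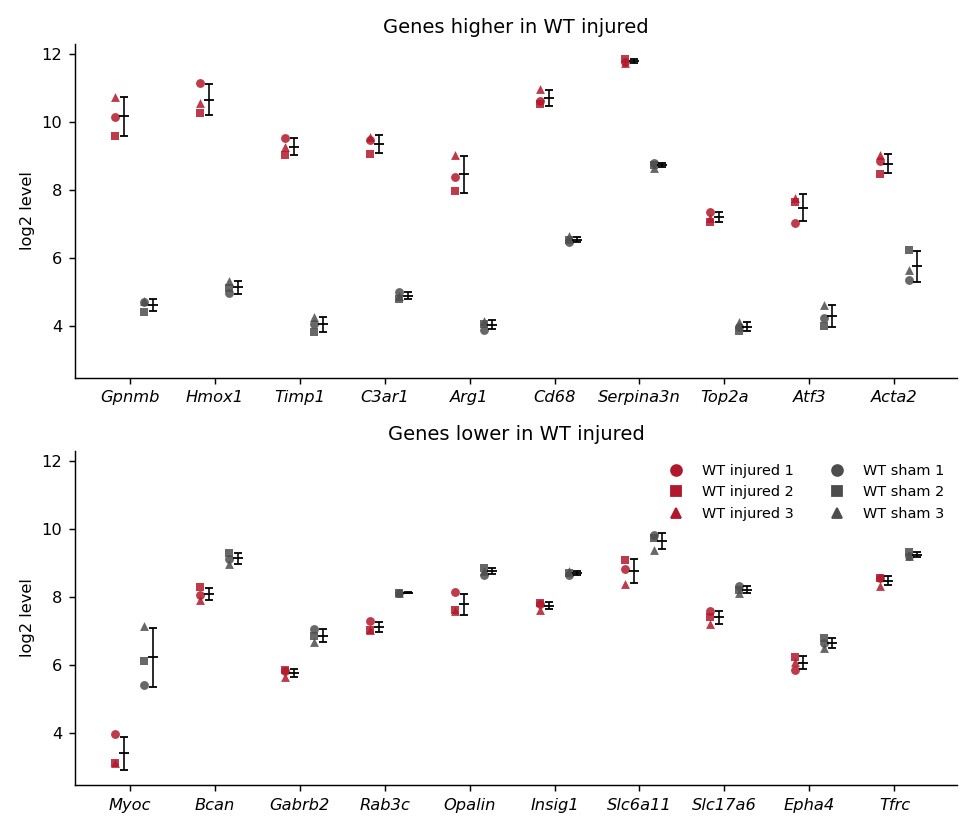
The y axis gives the log2 level of 10 genes called higher (upper panel) and 10 called lower (lower panel), in WT injured (red) and WT sham (grey) arrays. Points are single arrays with a symbol for each replicate number, and bars are the mean and SD of 3 arrays. The injured and sham arrays do not overlap for any of the 20 genes, as for nearly all called genes, and the gaps are wider in the upper panel.

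Cell type marker lists were read next, each by how many of its measured members were called. Markers of macrophages and phagocytes stood highest: 20 members rose and 0 fell of 21 measured, and the median difference was 2.39. Besides Gpnmb, Cd68 and Lgals3, the list's Spp1, osteopontin, which is also expressed by motor neurons, measured 12.43, 11.99 and 12.42 in WT injured cords, against 9.20, 9.38 and 9.27 in WT sham cords (log2 difference 2.996 ± 0.13 (SE), adjusted p = 4.9e-06). Tyrobp, the signalling adaptor of myeloid receptors, measured 9.72, 9.82 and 10.06 in WT injured cords, against 6.54, 6.73 and 6.89 in WT sham cords, and Itgam, the CD11b integrin chain, measured 8.54, 8.12 and 8.27 in WT injured cords, against 5.995, 5.93 and 5.86 in WT sham cords. The scavenger receptor Msr1 measured 6.81, 5.91 and 6.90 in WT injured cords, against 3.74, 3.59 and 3.69 in WT sham cords, with WT injured 2 about 1 log2 unit below the other injured arrays. Cd163, the haemoglobin scavenger receptor of perivascular macrophages, was the member that did not pass, at 3.84, 3.60 and 4.09 in WT injured cords, against 3.81, 3.63 and 3.67 in WT sham cords (difference 0.14, adjusted p = 0.47).

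Homeostatic microglia markers rose as well, but by less: 11 of 14 measured members were called higher and 0 lower, with a median difference of 0.995. Sparc also stands in the matrix glycoprotein list and Tgfbr1 in the TGF-beta list, so the members are not all particular to microglia. Fcrls, an Fc receptor-like protein of microglia, measured 9.15, 9.07 and 8.88 in WT injured cords, against 5.19, 5.53 and 5.41 in WT sham cords (log2 difference 3.66 ± 0.12 (SE), adjusted p = 1.6e-06). Olfml3, a secreted microglial protein, measured 10.06, 10.43 and 10.13 in WT injured cords, against 7.05, 6.81 and 7.30 in WT sham cords. Cx3cr1, the fractalkine receptor, differed by 1.45 and Csf1r, the receptor for colony stimulating factor, by 1.59. Tmem119 and P2ry12, widely used markers of resident microglia, were among those called higher. Tmem119 measured 5.71, 5.98 and 5.80 in WT injured cords, against 4.57, 4.72 and 4.29 in WT sham cords, and P2ry12 measured 6.21, 6.82 and 6.65 in WT injured cords, against 5.77, 5.84 and 5.97 in WT sham cords. The members that did not pass were the fructose transporter Slc2a5, Siglech and Sall1. Siglech measured 5.02, 5.43 and 4.99 in WT injured cords, against 5.12, 4.97 and 5.16 in WT sham cords, and the transcription factor Sall1 measured 6.22, 6.48 and 6.48 in WT injured cords, against 6.35, 5.95 and 6.14 in WT sham cords. WT injured 2 was highest of the injured arrays for Siglech, Cx3cr1, Csf1r and Olfml3, but not for Fcrls. The mean level of the microglia list was 7.30, 7.58 and 7.39 in the WT injured arrays, against 6.23, 6.20 and 6.28 in the WT sham arrays, whereas that of the macrophage list was 8.36, 7.93 and 8.50 in the WT injured arrays, against 5.91, 5.82 and 5.92 in the WT sham arrays.

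Of the monocyte markers, 7 members rose and 0 fell of 10 measured, and the median difference was 1.82. F13a1, the coagulation factor XIII A chain found in monocytes and macrophages, measured 8.38, 7.32 and 8.50 in WT injured cords, against 4.22, 3.99 and 4.27 in WT sham cords (log2 difference 3.91 ± 0.28 (SE), adjusted p = 4e-05), and Itgb2, the CD18 chain, measured 8.08, 7.99 and 8.23 in WT injured cords, against 5.08, 5.18 and 5.05 in WT sham cords. Ly6c2, the surface antigen of inflammatory monocytes, was near the bottom of the scale at 4.02, 3.99 and 3.84 in WT injured cords, against 3.98, 4.15 and 3.91 in WT sham cords, and Plac8 was spread widely, at 6.16, 4.26 and 5.45 in WT injured cords, against 3.74, 4.55 and 3.98 in WT sham cords. Of neutrophil markers, 2 of 13 measured members were called higher and 0 lower, beside 11.6% and 13% over all genes. The number called higher was thus near the share over all genes. The median difference was 0.08. Csf3r, the receptor for granulocyte colony stimulating factor, which myeloid cells share, measured 6.11, 6.53 and 6.55 in WT injured cords, against 4.63, 4.48 and 4.798 in WT sham cords. The granule genes overlapped between groups: S100a8 measured 8.27, 7.86 and 8.48 in WT injured cords, against 7.89, 6.91 and 8.66 in WT sham cords, and S100a9 measured 7.09, 6.15 and 7.59 in WT injured cords, against 6.96, 5.63 and 7.81 in WT sham cords, both with their lowest sham value in WT sham 2. Mmp8, a neutrophil collagenase, was called at 1.07 with all arrays and in 2 of the 6 fits that left out 1 array. The neutrophil count was 1 without WT injured 1, without WT injured 3, without WT sham 1 and without WT sham 2.

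Few lymphocyte markers were called in either direction. In every array the mean levels of the T cell, B cell and natural killer lists lay within the dimmest of 4 equal groups of genes (up to 4.05). In that group 1.77% of genes were called higher and 5.53% lower. At such levels, few calls cannot be read as few cells or as no change. Of the T cell list, 0 of 12 measured members were called higher and 1 lower, with a median of -0.10, the same as over all genes. That member, the adhesion molecule Cd2, differed by -0.33 and was called in none of the 6 fits that left out 1 array. The number called lower was 2 with the replicate number as a block, where Cd5 was called. Cd3g, a chain of the T cell receptor complex, measured 2.91, 2.79 and 2.95 in WT injured cords, against 2.98, 3.15 and 3.14 in WT sham cords. Of the natural killer list, 0 of 10 were called higher and 3 lower, beside 11.6% and 13% over all genes. The lower calls numbered 0 without WT injured 1, 2 or 3 or WT sham 3, and 1 without WT sham 1 or 2. Of the B cell list, Ms4a1, which encodes CD20, differed by -0.39, while Sdc1, a heparan sulphate proteoglycan of plasma cells and of many others, was the 1 member called higher, at 6.20, 5.61 and 5.88 in WT injured cords, against 4.85, 4.68 and 4.67 in WT sham cords. The number of B cell genes called higher was 2 with the replicate number as a block, where Cd22 was called. Among dendritic cell markers, Irf8, a transcription factor that microglia and macrophages share, measured 6.05, 6.12 and 6.06 in WT injured cords, against 4.21, 4.31 and 4.29 in WT sham cords, and it was the 1 of 10 called higher. Mast cell markers had 0 of 7 called higher and Kit at -0.52, the 1 called lower, in 3 of the 6 fits that left out 1 array. The dendritic count called higher and the mast cell count called lower were near the shares over all genes (11.6% and 13%).

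Reactive astrocyte markers rose together: 17 members rose and 0 fell of 19 measured, and the median difference was 1.98. Other cells also make some of these, Timp1 among them, so the rise cannot be assigned to astrocytes alone. Vim, vimentin, an intermediate filament protein, measured 10.85, 10.85 and 10.87 in WT injured cords, against 8.01, 7.79 and 8.18 in WT sham cords (log2 difference 2.87 ± 0.11 (SE), adjusted p = 3.2e-06). Serpina3n, a secreted protease inhibitor, measured 11.76, 11.84 and 11.74 in WT injured cords, against 8.79, 8.74 and 8.66 in WT sham cords. Osmr, the receptor for oncostatin M, measured 7.64, 6.88 and 7.31 in WT injured cords, against 5.25, 4.56 and 4.81 in WT sham cords. These genes separated the groups by more than 1.5 log2 units in every pair of arrays, and WT injured 1, 2 and 3 were nearly identical for Vim and Serpina3n. The members that did not pass were Sphk1 (0.32), sphingosine kinase, and Hsbp1 (0.07), which encodes a heat shock factor binding protein and stands in the list by its likeness in name to the small heat shock gene Hspb1, not used here. Of homeostatic astrocyte genes, 2 of 16 measured members were called higher and 2 lower, about the shares over all genes (11.6% and 13%), with a median difference of -0.11, beside -0.10 over all genes. Aqp4, the water channel of astrocyte endfeet, measured 9.78, 9.76 and 9.61 in WT injured cords, against 9.27, 9.08 and 9.08 in WT sham cords, and Aldh1l1, a folate enzyme, differed by 0.56. Against these, Slc6a11, the GABA transporter GAT-3, measured 8.83, 9.09 and 8.38 in WT injured cords, against 9.82, 9.73 and 9.38 in WT sham cords (log2 difference -0.88 ± 0.19 (SE), adjusted p = 0.012), and Gpc5, a glypican, measured 6.96, 7.15 and 6.89 in WT injured cords, against 7.81, 7.78 and 7.72 in WT sham cords. The potassium channel Kcnj10 and glutamine synthetase, Glul, did not pass, at 0.07 and -0.16.

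In the oligodendrocyte lineage, lists of precursor genes and of mature myelin genes were read. Of precursor markers, 6 members rose and 2 fell of 12 measured, and the median difference was 0.38. Gpr17, a receptor of precursors about to differentiate, measured 7.15, 7.65 and 7.38 in WT injured cords, against 6.20, 6.66 and 6.27 in WT sham cords. Vcan, versican, measured 7.20, 7.39 and 7.38 in WT injured cords, against 5.70, 5.83 and 5.95 in WT sham cords. Vcan also stands in the monocyte and proteoglycan lists. Bcan, brevican, which astrocytes also make, went the other way at 8.07, 8.29 and 7.92 in WT injured cords, against 9.14, 9.30 and 8.98 in WT sham cords (log2 difference -1.04 ± 0.13 (SE), adjusted p = 0.00081). Olig2 was the other member called lower. Pdgfra, the defining receptor of precursors and also a fibroblast gene, did not pass (0.25), and neither did Olig1, Nkx2-2 and C1ql1. Of mature myelin genes, 0 of 14 measured members were called higher and 3 lower, beside 11.6% and 13% over all genes. The median difference was -0.19, beside -0.10 over all genes. Opalin, a paranodal protein of myelin, measured 8.15, 7.63 and 7.61 in WT injured cords, against 8.66, 8.84 and 8.78 in WT sham cords, and it was the 1 member called in all 6 fits that left out 1 array. The other 2 calls, Cnp (-0.30) and Ugt8a (-0.33), were called in 0 and 1 of these fits and not with the replicate number as a block. The count was 1 with that block, and 1 without WT injured 1 or 3 or any single sham array. Mog, a myelin surface protein, measured 10.89, 11.05 and 11.09 in WT injured cords, against 11.15, 11.31 and 11.32 in WT sham cords, and did not pass.

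**Figure D3:**
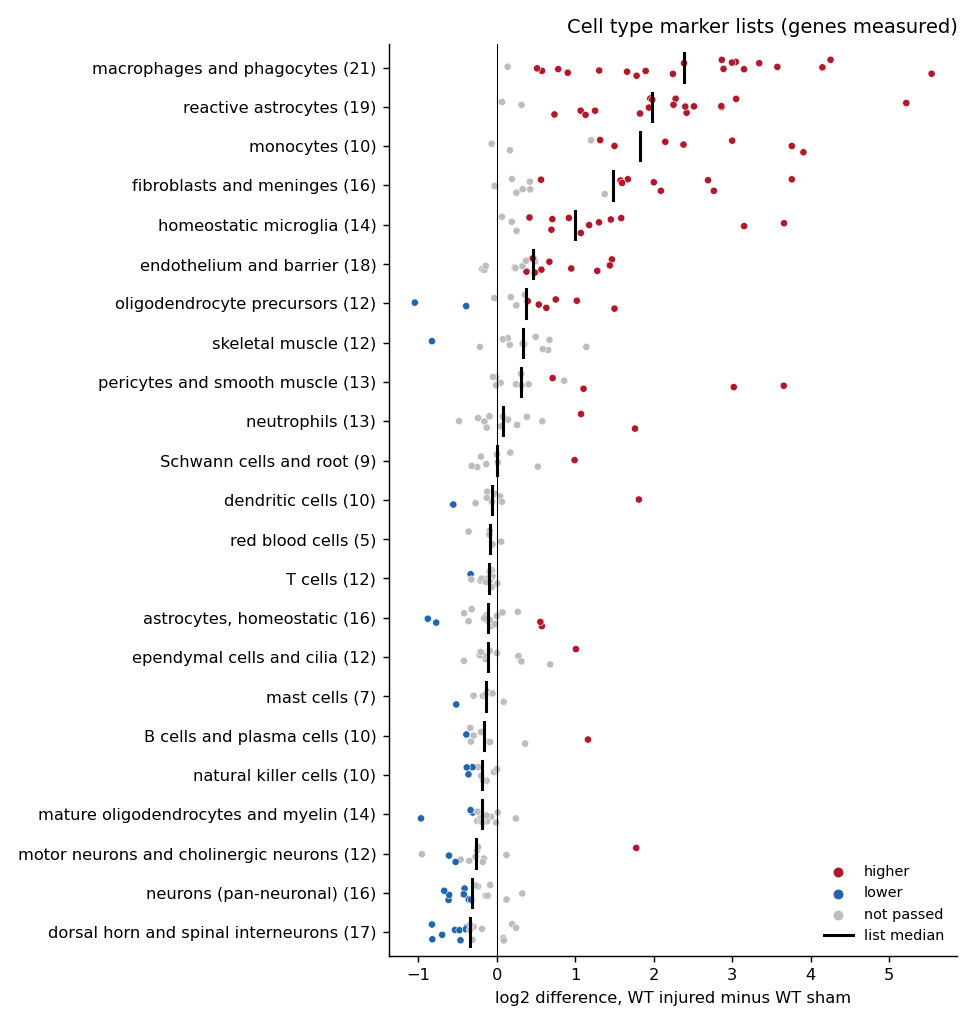
Each row is a cell type marker list with its number of measured genes, and each point a gene's log2 difference, WT injured minus WT sham (red, called higher; blue, called lower; grey, not passed; vertical position within a row is arbitrary). Black bars are list medians, which run from 2.39 for macrophages and phagocytes to -0.34 for dorsal horn and spinal interneurons.

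Neuronal markers moved down by small amounts. Of pan-neuronal genes, 0 members rose and 8 fell of 16 measured, and the median difference was -0.32. Ina, an intermediate filament of axons, measured 8.64, 9.01 and 8.75 in WT injured cords, against 9.54, 9.43 and 9.43 in WT sham cords (log2 difference -0.67 ± 0.11 (SE), adjusted p = 0.0043), and Syt1, the calcium sensor of synaptic vesicles, measured 9.04, 8.79 and 8.82 in WT injured cords, against 9.49, 9.51 and 9.49 in WT sham cords. Stmn2 and Uchl1, both abundant in neurons, did not pass, at -0.14 and -0.11. The count of 8 fell to 3 without WT injured 1, WT injured 3, WT sham 1 or WT sham 2, and to 5 without WT injured 2. Of the interneuron list, 0 of 17 measured members were called higher and 8 lower, with a median difference of -0.34. Slc17a6, the vesicular glutamate transporter of excitatory cells, measured 7.59, 7.42 and 7.20 in WT injured cords, against 8.32, 8.22 and 8.14 in WT sham cords, Pvalb, parvalbumin, measured 8.02, 8.09 and 7.76 in WT injured cords, against 8.39, 8.91 and 9.04 in WT sham cords, and Calb1, calbindin, measured 6.62, 6.83 and 6.70 in WT injured cords, against 7.11, 7.57 and 7.56 in WT sham cords. All injured arrays lay below all sham arrays for these 3 genes, as for 26.7% of all genes. They were named for their small p, so this follows largely from the choice. The peptide Penk (Penk1 on the array) and the glycine transporter Slc6a5 did not pass, at 0.08 and -0.30. That count of 8 was 4 without WT injured 1, 4 without WT injured 3 and 5 without WT sham 3. Cholinergic genes were spread more widely. Chodl, chondrolectin of fast motor neurons, measured 7.71, 7.42 and 7.52 in WT injured cords, against 8.61, 9.16 and 7.74 in WT sham cords, with WT sham 3 near the injured arrays, and did not pass (adjusted p = 0.051), but passed with the replicate number as a block. Anxa4, an annexin that sits in the motor neuron list and is found in many epithelial cells, was the 1 member called higher, at 6.87, 6.31 and 6.82 in WT injured cords, against 4.87, 4.92 and 4.87 in WT sham cords, while Slc5a7, the choline transporter, and Ache, acetylcholinesterase, were the 2 called lower and were each called in 2 of the 6 fits that left out 1 array. The number called lower in that list was 0 without WT sham 2, 4 without WT sham 3 and 1 without any other array. With all arrays, 1 of 12 measured members was called higher and 2 lower, near the shares over all genes (11.6% and 13%).

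Genes of synaptic transmission and excitability were lower in most cases. In the synaptic vesicle list, 0 members rose and 15 fell of 20 measured, and the median difference was -0.47. Rab3c, a vesicle GTPase, measured 7.30, 7.03 and 7.05 in WT injured cords, against 8.13, 8.14 and 8.12 in WT sham cords (log2 difference -1.001 ± 0.10 (SE), adjusted p = 0.00027), and Rims1, an active zone scaffold, measured 7.14, 7.38 and 7.26 in WT injured cords, against 7.90, 7.94 and 7.97 in WT sham cords. In the glutamate receptor list, 0 of 17 measured members were called higher and 12 lower, with a median difference of -0.50. Grm3, a metabotropic receptor, measured 7.32, 7.43 and 7.21 in WT injured cords, against 8.04, 8.12 and 8.21 in WT sham cords, and the AMPA receptor subunits Gria2 and Gria4 differed by -0.54 and -0.52. In the GABA and glycine list, 0 members rose and 12 fell of 17 measured, and the median difference was -0.46. Gabrb2, a GABA-A receptor subunit, measured 5.82, 5.85 and 5.64 in WT injured cords, against 7.07, 6.85 and 6.68 in WT sham cords (log2 difference -1.10 ± 0.12 (SE), adjusted p = 0.00044), and the glycine receptor subunit Glra2 measured 5.30, 5.29 and 5.23 in WT injured cords, against 6.05, 6.04 and 5.91 in WT sham cords. No member of the glutamate or GABA and glycine lists had a difference above 0, whereas 5565 of all 15830 genes did. Among sodium and calcium channels, 0 of 20 measured members were called higher and 14 lower, with a median difference of -0.52, with Cacnb4, a calcium channel beta subunit, at -0.68. Among potassium channels, 0 members rose and 10 fell of 17 measured, and the median difference was -0.38, with Kcnh7 and Kcnj3 at -0.80 and -0.73. Without WT injured 3 the numbers called lower were 8 for synaptic vesicle release, 6 for GABA and glycine transmission and 5 for potassium channels; the last was 6 without WT sham 1, 2 or 3.

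Vessel and matrix cells formed the other rising group. Of endothelial genes, 10 of 18 measured members were called higher and 0 lower, with a median difference of 0.46. Cdh5, VE-cadherin of endothelial junctions, measured 7.08, 6.37 and 7.21 in WT injured cords, against 5.68, 5.28 and 5.29 in WT sham cords (log2 difference 1.47 ± 0.22 (SE), adjusted p = 0.0022), and Vwf, von Willebrand factor, measured 6.18, 6.003 and 6.59 in WT injured cords, against 5.01, 4.79 and 4.64 in WT sham cords. Transporters of the barrier did not pass: Slc2a1, the glucose transporter, differed by 0.33 and Slco1a4 by -0.16. The endothelial count was 6 without WT injured 1 and 5 without WT injured 3. Of pericyte and smooth muscle genes, 4 members rose and 0 fell of 13 measured, and the median difference was 0.31. Acta2, smooth muscle actin, stood at 8.84, 8.46 and 9.02 in WT injured cords, against 5.37, 6.25 and 5.65 in WT sham cords, and Tagln, transgelin, stood at 8.004, 8.65 and 8.36 in WT injured cords, against 4.42, 5.03 and 4.59 in WT sham cords (log2 difference 3.66 ± 0.20 (SE), adjusted p = 9.6e-06), whereas the contractile genes Myh11 (-0.01) and Cnn1 (0.31), the filament gene Des (0.86) and the pericyte marker Rgs5 (0.41) did not pass. Of fibroblast and meningeal genes, 9 of 16 measured members were called higher and 0 lower, with a median difference of 1.48. Dcn, decorin, measured 9.45, 8.50 and 9.45 in WT injured cords, against 6.15, 6.29 and 6.89 in WT sham cords, and Lum, lumican, measured 7.36, 6.502 and 7.36 in WT injured cords, against 3.70, 4.12 and 5.10 in WT sham cords, with WT sham 3 the highest of the sham arrays for both. Of ependymal genes 1 of 12 was called higher, Rarres2 (chemerin, also made by fibroblasts), in 3 of the 6 fits that left out 1 array, and 2 were with the replicate number as a block, where Mia1 was called. Foxj1, the regulator of motile cilia, measured 6.41, 6.58 and 6.72 in WT injured cords, against 6.33, 6.23 and 6.31 in WT sham cords. Of the Schwann cell list, 1 of 9 was called higher: Pmp22, a peripheral myelin protein also found in fibroblasts and endothelium, at 10.34, 9.48 and 9.68 in WT injured cords, against 8.86, 8.78 and 8.89 in WT sham cords, and 2 were with the replicate number as a block, where Egr2, which also stands among the immediate early genes, was called. The ependymal and Schwann cell counts of 1 were each near the share called higher over all genes (11.6%). Genes of skeletal muscle marked out 1 array: the mean level of the 12 measured genes was 6.02, 4.49 and 4.44 in the WT injured arrays, against 4.67, 4.63 and 4.76 in the WT sham arrays. Acta1, skeletal actin, measured 8.77, 5.51 and 5.16 in WT injured cords, against 5.24, 5.34 and 5.43 in WT sham cords, so the excess lay in WT injured 1 alone. Its part in other results was not tested. Without WT injured 1 the genes called higher by at least 2-fold numbered 624, against 626 with it, and the genes called lower numbered 1277, against 2058 with it. Red cell genes, such as Alas2 of haem synthesis, had 0 of 5 called.

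**Figure D4:**
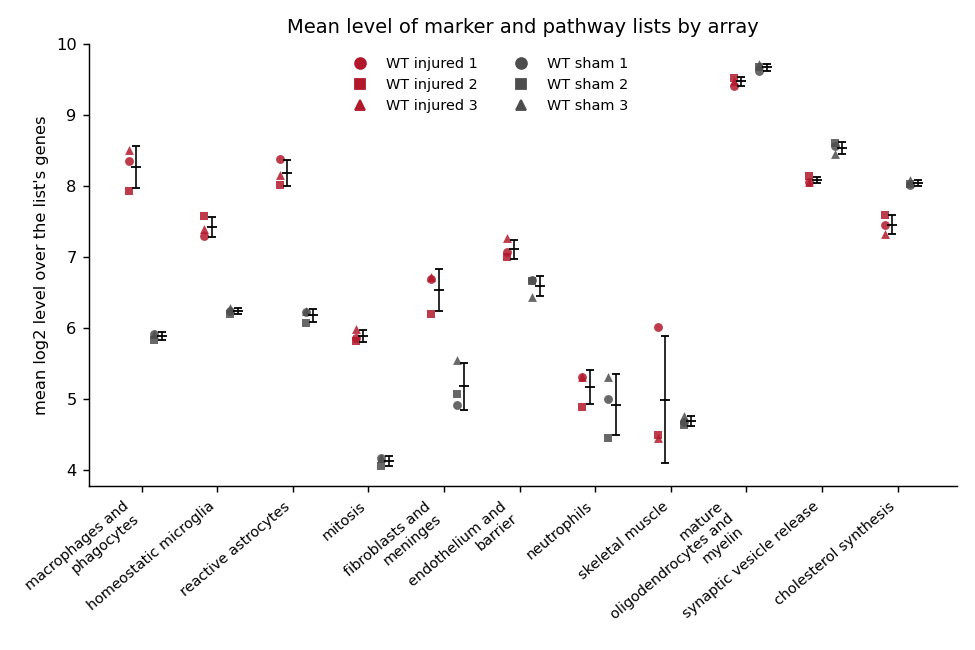
The y axis gives the mean log2 level over the measured genes of 11 lists, in WT injured (red) and WT sham (grey) arrays. Points are single arrays, and bars are the mean and SD of 3 arrays. The skeletal muscle mean is raised in WT injured 1 only (6.02), the neutrophil means overlap, and the means of the other 9 lists do not overlap between groups.

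Cell division genes rose almost without exception. In the mitosis list, 19 members rose and 0 fell of 20 measured, and the median difference was 1.74, and all 19 stayed called in each fit that left out 1 array. Top2a, the topoisomerase that untangles chromosomes, measured 7.36, 7.06 and 7.19 in WT injured cords, against 3.98, 3.86 and 4.13 in WT sham cords (log2 difference 3.21 ± 0.12 (SE), adjusted p = 2e-06), Ccna2, cyclin A2, measured 7.03, 6.87 and 7.15 in WT injured cords, against 4.23, 3.95 and 4.35 in WT sham cords, and Ccnb2, cyclin B2, measured 6.85, 7.16 and 7.27 in WT injured cords, against 4.61, 4.69 and 4.73 in WT sham cords. The groups lay more than 2 log2 units apart in every pair of arrays for these 3 genes. Anln, an actin-binding protein of the cleavage furrow that myelinating oligodendrocytes also express, was the member that did not pass, at 6.31, 6.52 and 6.67 in WT injured cords, against 6.77, 6.49 and 6.45 in WT sham cords. In the DNA replication list, 15 of 17 measured members were called higher and 0 lower, with a median difference of 0.99. Mcm5, a subunit of the replicative helicase, measured 5.75, 5.79 and 5.64 in WT injured cords, against 4.35, 4.22 and 4.31 in WT sham cords, and Rrm1, of ribonucleotide reductase, measured 8.43, 8.32 and 8.38 in WT injured cords, against 6.97, 7.12 and 7.27 in WT sham cords. The promoters of 2 of these genes are shown because mitotic promoters are known for 2 short motifs, the CHR element (TTTGAA) and the CCAAT box bound by NF-Y (CCAAT). Each is the 300 bases from 250 before to 50 after the start, from RefSeq on GRCm38.p6, with matches to either motif on either strand in capitals.
Top2a: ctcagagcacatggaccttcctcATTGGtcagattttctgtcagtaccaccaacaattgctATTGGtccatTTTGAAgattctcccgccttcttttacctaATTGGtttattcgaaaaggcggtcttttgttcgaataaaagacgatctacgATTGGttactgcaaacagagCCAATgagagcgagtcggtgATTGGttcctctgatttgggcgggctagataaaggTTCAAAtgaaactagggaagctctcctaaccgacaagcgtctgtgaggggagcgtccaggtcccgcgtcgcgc
Ccnb2: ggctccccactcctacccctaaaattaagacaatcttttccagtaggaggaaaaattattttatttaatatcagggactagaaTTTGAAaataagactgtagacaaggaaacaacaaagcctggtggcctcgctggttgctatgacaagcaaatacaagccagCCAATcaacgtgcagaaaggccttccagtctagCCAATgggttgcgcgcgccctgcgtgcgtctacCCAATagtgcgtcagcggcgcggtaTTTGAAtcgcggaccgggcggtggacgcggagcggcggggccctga
The Top2a promoter lies at chr11:99024140-99024439 on the minus strand and that of Ccnb2 at chr9:70421505-70421804 on the minus strand. TTTGAA was present on either strand in 75% (12 of 16) of the mitosis list, against 14.9% (1881 of 12627) over all measured genes with a promoter and 20.8% (100 of 481) of the genes called at least 2-fold higher. CCAAT was present in 81.2% (13 of 16) of the mitosis list and 38.5% (4868 of 12627) of all. In the DNA replication list, TTTGAA was present in 13.3% (2 of 15), about the share of all genes. These are matches of letters, for 1 start per gene, and not measured binding.

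Genes of innate recognition were mostly higher. Of Fc receptor genes, 11 member rose and 0 fell of 12 measured, and the median difference was 2.14. Fcgr1, the high-affinity IgG receptor, measured 7.27, 7.13 and 7.22 in WT injured cords, against 5.20, 4.97 and 4.88 in WT sham cords, and Inpp5d, the SHIP1 phosphatase that dampens these receptors, measured 7.58, 7.62 and 7.84 in WT injured cords, against 5.52, 5.28 and 5.41 in WT sham cords (log2 difference 2.28 ± 0.11 (SE), adjusted p = 6.4e-06). Of complement genes, 10 of 16 measured members were called higher and 0 lower, with a median difference of 1.53. C1qb and C1qc, chains of the first component, differed by 2.13 and 2.44. Of the regulators, Serping1 was called higher, while Cd55 (-0.25) and Cd59a (0.16) did not pass. Of Toll-like receptor genes, 12 members rose and 0 fell of 19 measured, and the median difference was 0.78. Tlr13, a receptor for bacterial ribosomal RNA, measured 7.20, 7.08 and 7.65 in WT injured cords, against 4.03, 3.56 and 4.26 in WT sham cords, and Tlr7 measured 7.27, 7.09 and 7.55 in WT injured cords, against 4.57, 4.74 and 5.29 in WT sham cords, whereas Tlr3, which senses double-stranded RNA, measured 6.86, 6.98 and 6.82 in WT injured cords, against 7.16, 6.81 and 6.79 in WT sham cords. In the NADPH oxidase list, 6 of 10 measured members were called higher and 0 lower, with a median difference of 0.97. Cyba, of the phagocyte oxidase, measured 8.25, 8.06 and 8.44 in WT injured cords, against 5.55, 5.60 and 5.81 in WT sham cords, and its catalytic subunit Cybb measured 7.37, 6.44 and 7.09 in WT injured cords, against 4.27, 4.78 and 4.99 in WT sham cords. Of the non-phagocytic oxidases, Nox4 was called higher, at 4.76, 4.91 and 4.88 in WT injured cords, against 4.26, 4.12 and 4.39 in WT sham cords, whereas Nox3, Noxo1 and Noxa1 lay between -0.17 and -0.06 and did not pass, nor did Nox1.

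Chemokines rose in a subset. Of CC chemokines and their receptors, 10 members rose and 1 fell of 22 measured, and the median difference was 0.05. Ccl2, which recruits monocytes, measured 7.80, 6.52 and 7.73 in WT injured cords, against 4.56, 4.47 and 4.86 in WT sham cords, and Ccl12 measured 7.23, 6.06 and 6.19 in WT injured cords, against 3.82, 3.98 and 4.21 in WT sham cords. Ccl5, a T cell chemokine, was the 1 member called lower, at -0.52, in 1 of the 6 fits that left out 1 array and not with the replicate number as a block. Of CXC members, 5 of 20 measured members were called higher and 0 lower, with a median difference of 0.07. Cxcl10, induced by interferon, measured 6.59, 6.58 and 6.16 in WT injured cords, against 4.14, 4.30 and 4.13 in WT sham cords (log2 difference 2.25 ± 0.14 (SE), adjusted p = 1.6e-05), and Pf4, platelet factor 4, which macrophages also make, measured 7.24, 6.01 and 8.19 in WT injured cords, against 4.55, 4.39 and 4.45 in WT sham cords, with WT injured 2 the lowest. Cxcl12 (-0.04) and Cxcl14 (-0.14) did not pass. Cytokine and inflammasome genes had 13 of 22 measured members called higher and 0 lower, and a median difference of 0.82. The receptors Tnfrsf1a and Tnfrsf1b of tumour necrosis factor differed by 2.12 and 2.29, Tgfb1 by 1.99 and Casp1, the inflammasome protease, by 1.33, while Il18, its substrate, differed by -0.27 and did not pass.

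The interferon list rose moderately: 11 member rose and 0 fell of 18 measured, and the median difference was 0.72. Irgm1, an immunity-related GTPase, measured 7.90, 7.32 and 7.27 in WT injured cords, against 5.87, 6.05 and 6.20 in WT sham cords, and Ifit1, which binds viral RNA, measured 5.02, 5.08 and 5.15 in WT injured cords, against 3.48, 4.02 and 4.04 in WT sham cords by 1 probeset. Rsad2, viperin, overlapped between groups at 5.50, 6.26 and 6.97 in WT injured cords, against 5.94, 5.89 and 6.57 in WT sham cords. The promoters of Irgm1 and Ifit1 are shown because interferon-responsive promoters often hold a repeat of GAAA, here searched on both strands as GAAA, 2 bases of any kind and GAAA again, and given in capitals in the same RefSeq windows.
Irgm1: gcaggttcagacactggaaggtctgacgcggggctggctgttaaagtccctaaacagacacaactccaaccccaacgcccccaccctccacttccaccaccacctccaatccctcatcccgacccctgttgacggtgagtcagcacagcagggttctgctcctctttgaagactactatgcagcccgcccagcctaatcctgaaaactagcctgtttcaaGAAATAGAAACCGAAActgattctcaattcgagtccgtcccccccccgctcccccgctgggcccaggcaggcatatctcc
Ifit1: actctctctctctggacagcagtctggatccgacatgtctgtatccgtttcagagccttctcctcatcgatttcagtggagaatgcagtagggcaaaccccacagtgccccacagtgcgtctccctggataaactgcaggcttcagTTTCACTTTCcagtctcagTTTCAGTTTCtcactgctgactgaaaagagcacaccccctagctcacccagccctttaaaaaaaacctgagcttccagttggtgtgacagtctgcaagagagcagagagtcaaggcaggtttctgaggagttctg
The first lies at chr11:48871371-48871670 on the minus strand and the second at chr19:34640639-34640938 on the plus strand. The motif was present in 64.3% (9 of 14) of the interferon list, against 3.24% (409 of 12627) of all measured genes with a promoter, 5.27% (77 of 1460) of genes called higher and 1.79% (29 of 1622) of genes called lower. Antigen presentation genes had 14 of 18 measured members called higher and 0 lower, and a median difference of 0.70. H2-Ab1, a class II chain, measured 7.61, 6.55 and 7.34 in WT injured cords, against 4.46, 4.50 and 4.97 in WT sham cords, and B2m, the light chain of class I, measured 11.32, 11.19 and 11.39 in WT injured cords, against 10.32, 10.21 and 10.18 in WT sham cords (log2 difference 1.06 ± 0.10 (SE), adjusted p = 0.00015). These genes and the Fc receptors belong to families with close copies, so single-gene signals there are uncertain. Cd40, a costimulatory receptor, measured 3.89, 3.88 and 3.82 in WT injured cords, against 4.13, 3.68 and 4.05 in WT sham cords, and did not pass.

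Clearance and lipid handling changed in opposite directions to lipid synthesis. Of lysosomal genes, 19 of 22 measured members were called higher and 0 lower, with a median difference of 1.02. Ctsc, cathepsin C, measured 8.88, 8.40 and 8.42 in WT injured cords, against 5.09, 5.08 and 5.12 in WT sham cords (log2 difference 3.47 ± 0.14 (SE), adjusted p = 3.2e-06), and Ctsz, cathepsin Z, measured 9.99, 9.86 and 10.21 in WT injured cords, against 7.63, 7.70 and 7.69 in WT sham cords. Of lipid uptake and efflux genes, 10 members rose and 0 fell of 16 measured, and the median difference was 0.92. Ch25h, which makes 25-hydroxycholesterol, measured 7.90, 7.08 and 7.93 in WT injured cords, against 3.60, 3.51 and 3.55 in WT sham cords (log2 difference 4.08 ± 0.21 (SE), adjusted p = 7.3e-06). Plin2 (Adfp on the array), a coat protein of lipid droplets, measured 9.81, 9.28 and 10.21 in WT injured cords, against 6.79, 7.13 and 7.17 in WT sham cords, and Abca1, the cholesterol exporter, measured 8.67, 8.55 and 8.84 in WT injured cords, against 6.74, 6.70 and 6.37 in WT sham cords. Cholesterol synthesis was the list with the lowest median: 0 of 16 measured members were called higher and 13 lower, with a median difference of -0.62. Insig1, a sterol-sensing regulator, measured 7.79, 7.83 and 7.63 in WT injured cords, against 8.65, 8.70 and 8.76 in WT sham cords (log2 difference -0.95 ± 0.10 (SE), adjusted p = 0.00026), Hmgcs1, which makes HMG-CoA, measured 8.98, 9.01 and 8.64 in WT injured cords, against 9.77, 9.84 and 9.83 in WT sham cords, and Lss, lanosterol synthase, measured 5.45, 5.62 and 5.20 in WT injured cords, against 6.23, 6.35 and 6.22 in WT sham cords. The groups did not overlap in any of these, which follows largely from naming the members with the smallest p. The count was 8 without WT injured 3. Fdps, at 0.15 from 1 dim probeset, was the 1 member with a difference above 0, whereas 5565 of all 15830 genes had one. The promoter of Hmgcs1 is shown because the pathway is known for sterol regulatory elements (searched as TCACNCCAC) beside CCAAT boxes; matches to both are in capitals.
Hmgcs1: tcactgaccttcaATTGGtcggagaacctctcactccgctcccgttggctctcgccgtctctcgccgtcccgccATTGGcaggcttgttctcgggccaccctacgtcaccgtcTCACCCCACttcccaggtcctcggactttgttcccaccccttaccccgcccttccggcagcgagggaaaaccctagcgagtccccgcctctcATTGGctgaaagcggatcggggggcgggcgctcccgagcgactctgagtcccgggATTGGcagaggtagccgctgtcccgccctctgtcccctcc
It lies at chr13:119690101-119690400 on the plus strand. TCACNCCAC was present in 7.69% (1 of 13) of the cholesterol list, that of Hmgcs1, and in 1.17% (148 of 12627) of all genes, and CCAAT in 92.3% (12 of 13) of the list.

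Haem and iron genes moved singly. In that list, 6 members rose and 1 fell of 21 measured, and the median difference was 0.11. Besides Hmox1, Slc11a1, the phagosomal metal transporter, measured 7.49, 6.99 and 7.28 in WT injured cords, against 4.53, 4.60 and 4.65 in WT sham cords, and Hfe, an iron regulator, differed by 1.26. Tfrc, the transferrin receptor, measured 8.56, 8.58 and 8.33 in WT injured cords, against 9.22, 9.33 and 9.21 in WT sham cords (log2 difference -0.76 ± 0.10 (SE), adjusted p = 0.0013), the 1 member called lower. Ferritin heavy chain, Fth1, was among the brightest genes and measured 12.77, 12.84 and 12.78 in WT injured cords, against 12.71, 12.75 and 12.75 in WT sham cords. Of Nrf2 and glutathione genes, 8 of 22 measured members were called higher and 2 lower, with a median difference of 0.17. Nfe2l2, which encodes Nrf2, measured 8.06, 8.06 and 8.06 in WT injured cords, against 7.05, 7.06 and 7.04 in WT sham cords (log2 difference 1.01 ± 0.08 (SE), adjusted p = 8.5e-05), with arrays of a group within 0.02 of each other. Mt2, a metallothionein, differed by 0.99 and Prdx6, a peroxiredoxin, by 0.94, whereas Sod2, mitochondrial superoxide dismutase, measured 6.55, 6.65 and 6.58 in WT injured cords, against 6.92, 7.28 and 7.15 in WT sham cords. In the arginine list, 3 members rose and 2 fell of 11 measured, and the median difference was 0.05. Beside Arg1, the arginine transporter Slc7a2 differed by 0.54, and Nos1, the neuronal nitric oxide synthase, measured 5.35, 5.21 and 5.15 in WT injured cords, against 5.99, 5.57 and 5.90 in WT sham cords, called lower in 5 of the 6 fits that left out 1 array.

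Extracellular matrix rose broadly. Of matrix glycoproteins, 16 of 17 measured members were called higher and 0 lower, with a median difference of 1.604. Fn1, fibronectin, measured 10.20, 9.82 and 9.86 in WT injured cords, against 5.84, 6.99 and 5.77 in WT sham cords, Tnc, tenascin C, measured 8.24, 7.81 and 7.20 in WT injured cords, against 4.19, 4.19 and 4.25 in WT sham cords (log2 difference 3.54 ± 0.22 (SE), adjusted p = 2.3e-05), and Tgfbi, a matrix adaptor protein, measured 8.31, 7.36 and 7.75 in WT injured cords, against 4.85, 4.61 and 5.01 in WT sham cords. WT injured 1 was the highest array for all 3. Of collagens, 14 members rose and 0 fell of 21 measured, and the median difference was 0.63. Col3a1, a fibrillar collagen, measured 7.16, 6.51 and 6.85 in WT injured cords, against 4.60, 4.58 and 5.07 in WT sham cords, and Col12a1, which decorates fibrils, measured 6.56, 6.58 and 6.28 in WT injured cords, against 4.89, 4.69 and 4.61 in WT sham cords. Cartilage collagens Col2a1 (0.02) and Col11a1 (0.10) did not pass. Of metalloproteinases and inhibitors, 10 of 19 measured members were called higher and 1 lower, with a median difference of 0.32. Mmp19 measured 5.92, 5.53 and 5.88 in WT injured cords, against 3.70, 3.84 and 3.54 in WT sham cords, and Timp3 differed by 0.82, while Timp4 differed by -0.02. Of proteoglycans, 11 member rose and 3 fell of 21 measured, and the median difference was 0.49. Components of perineuronal nets moved both ways: Bcan and the link proteins Hapln1 and Hapln4 were the members called lower, the link proteins at -0.72 and -0.69, while Ncan, neurocan (0.496), and Vcan were called higher and Acan, aggrecan (-0.18), did not pass. The call held for Hapln4 in 2 of the 6 fits that left out 1 array. Chst11, which sulphates chondroitin chains, differed by 0.98. Of integrins, 10 of 18 measured members were called higher and 0 lower, with a median difference of 0.44, with Itga5 and Itgb5 at 1.76 and 1.40. Of the TGF-beta family, 9 members rose and 0 fell of 20 measured, and the median difference was 0.31. The count was 5 without WT injured 3. The receptor Tgfbr2 differed by 1.300, and of the intracellular Smads, Smad3 was called higher at 0.40, in 3 of the 6 fits that left out 1 array, while Smad2, Smad4 and Smad7 lay between -0.05 and 0.19 and did not pass.

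Injury signalling and stress genes rose in part. Of the interleukin-6 family and Stat3 targets, 9 of 15 measured members were called higher and 1 lower, with a median difference of 0.58. Stat3 itself measured 9.26, 8.98 and 8.995 in WT injured cords, against 8.10, 8.09 and 7.91 in WT sham cords (log2 difference 1.04 ± 0.11 (SE), adjusted p = 0.00037), while Lifr (-0.05) and Jak1 (0.09) did not pass and Cntfr, the receptor for ciliary neurotrophic factor, measured 7.48, 7.82 and 7.67 in WT injured cords, against 8.31, 8.13 and 8.20 in WT sham cords. Of immediate early genes, 6 members rose and 0 fell of 16 measured, and the median difference was 0.37. Atf3, a stress-induced transcription factor of axotomized neurons and other cells, measured 7.03, 7.64 and 7.78 in WT injured cords, against 4.23, 4.01 and 4.64 in WT sham cords (log2 difference 3.19 ± 0.22 (SE), adjusted p = 3.3e-05), and Fos and Jun differed by 1.15 and 1.06. Arc, an activity-dependent neuronal gene, measured 5.67, 5.70 and 5.34 in WT injured cords, against 6.31, 6.27 and 5.40 in WT sham cords, and did not pass. Of regeneration-associated genes, 6 of 16 measured members were called higher and 0 lower, with a median difference of 0.29. Sprr1a, a small proline-rich protein of regenerating neurons, measured 8.97, 10.94 and 10.38 in WT injured cords, against 6.44, 6.36 and 7.57 in WT sham cords, and Gap43, of growth cones, measured 10.59, 10.70 and 10.79 in WT injured cords, against 10.10, 10.41 and 10.58 in WT sham cords, and did not pass (adjusted p = 0.11). Growth arrest genes had 6 of 15 measured members called higher and 0 lower, and a median difference of 0.28, with Gadd45g at 1.89 and Cdkn1a, the p21 inhibitor, at 0.86. Chaperone genes had 7 of 15 measured members called higher and 1 lower, and a median difference of 0.41, with Hspa5, BiP of the endoplasmic reticulum, at 0.70 and Pdia4 at 0.90. Of apoptosis genes, 8 members rose and 0 fell of 16 measured, and the median difference was 0.44, with Casp8 at 2.16 and the inhibitor Cflar at 0.99, while Bcl2 (-0.04) and Casp9 (-0.12) did not pass.

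Glycolytic genes rose in part, and oxidative phosphorylation genes were not called. Of glycolytic genes, 4 of 14 measured members were called higher and 0 lower, beside 11.6% and 13% over all genes. The median difference was 0.08. Slc16a3, a lactate exporter, measured 6.64, 6.53 and 7.01 in WT injured cords, against 4.63, 4.28 and 5.03 in WT sham cords, and Hk2, an inducible hexokinase, measured 5.42, 5.47 and 5.14 in WT injured cords, against 4.21, 3.97 and 4.01 in WT sham cords, while the abundant Aldoa (0.11) and Gpi1 (0.06) did not pass. Of oxidative phosphorylation genes, 0 of 22 were called, with a median of -0.15; that median was 0.02 within the first extraction batch and -0.32 within the second. The proteasome list had 1 of 25 called, Psmd11, in 1 of the 6 fits that left out 1 array and not with the replicate number as a block.

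**Figure D5:**
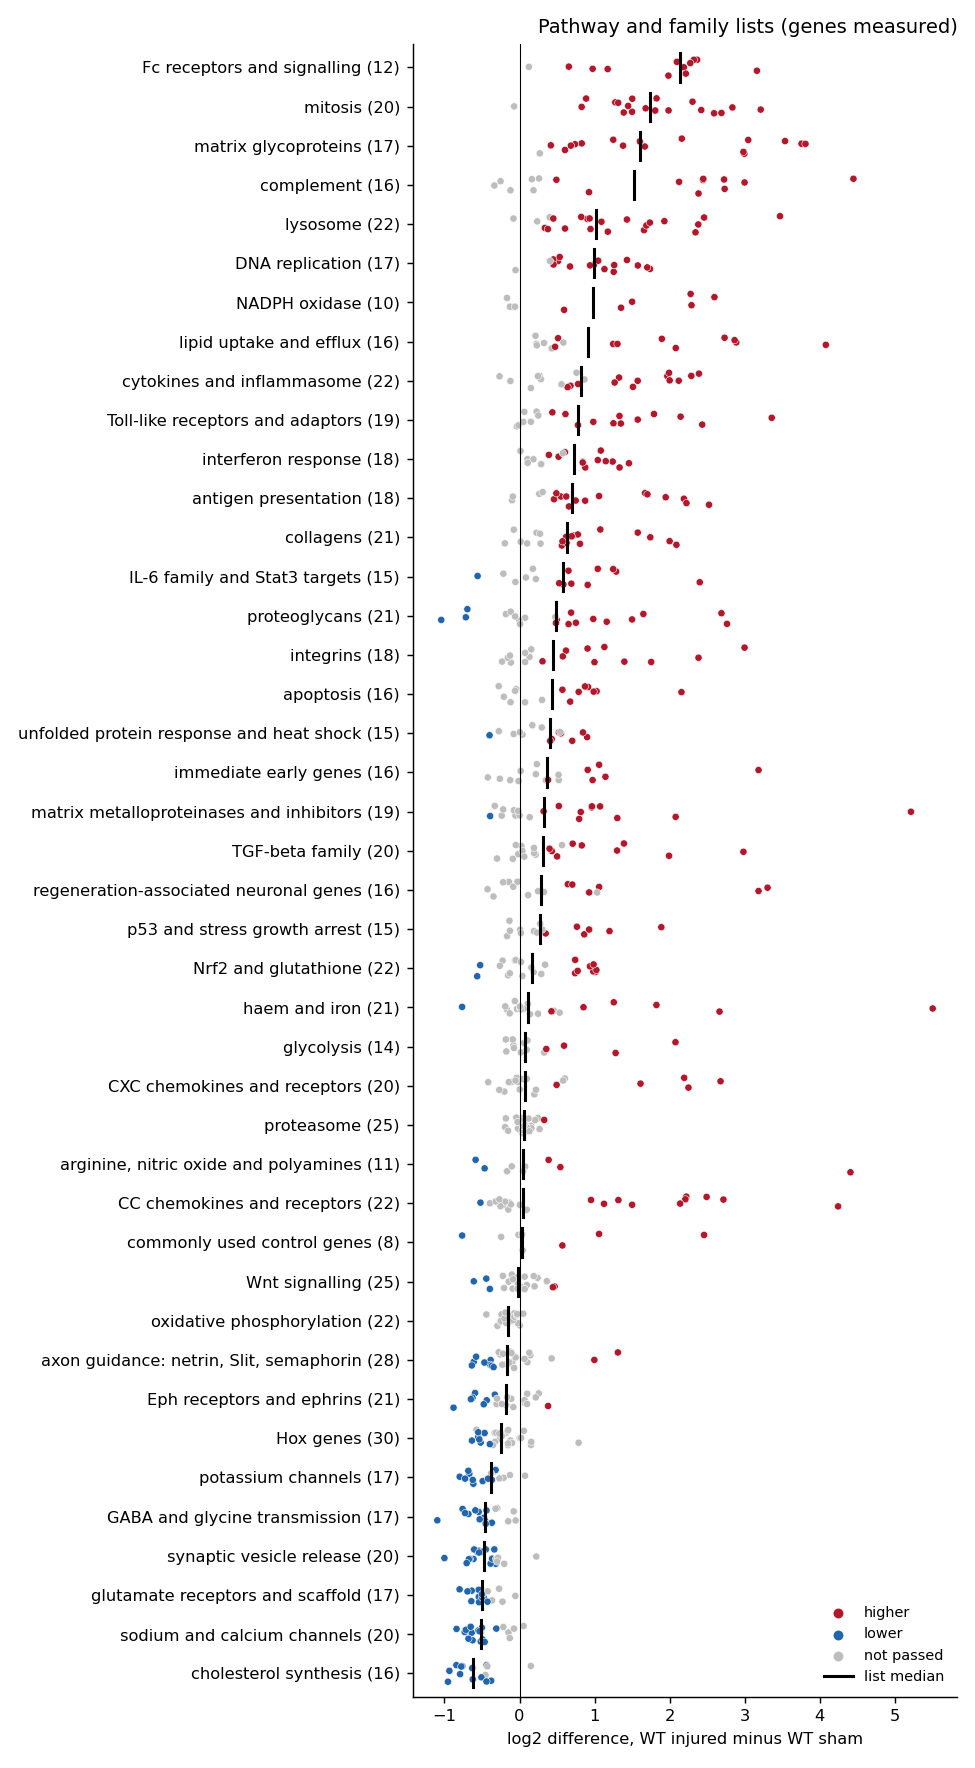
Each row is a pathway or family list with its number of measured genes, and each point a gene's log2 difference, WT injured minus WT sham (red, called higher; blue, called lower; grey, not passed; vertical position within a row is arbitrary). Black bars are list medians, from 2.14 for Fc receptors to -0.62 for cholesterol synthesis.

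The Eph, guidance, Wnt and Hox counts are read beside 11.6% called higher and 13% lower over all genes. Of Eph receptors and ephrins, 1 member rose and 7 fell of 21 measured, and the median difference was -0.18. Epha4 itself, intact in these mice, measured 5.87, 6.24 and 6.11 in WT injured cords, against 6.66, 6.81 and 6.52 in WT sham cords (log2 difference -0.59 ± 0.13 (SE), adjusted p = 0.011). Epha6 measured 5.13, 5.41 and 5.26 in WT injured cords, against 6.17, 5.997 and 6.27 in WT sham cords, and the ligands Efna5 and Efnb3 differed by -0.63 and -0.65. Epha2, an epithelial Eph receptor, was the 1 member called higher, at 0.38, in 2 of the 6 fits that left out 1 array. Of netrin, Slit and semaphorin genes, 2 of 28 measured members were called higher and 9 lower, with a median difference of -0.17. The netrin receptors Dcc and Unc5b differed by -0.61 and -0.64, and Plxnb2, a semaphorin receptor found in glia and myeloid cells, measured 7.43, 7.52 and 7.56 in WT injured cords, against 6.29, 6.08 and 6.20 in WT sham cords (log2 difference 1.31 ± 0.10 (SE), adjusted p = 4.9e-05), with Nrp1, a coreceptor of vessels and myeloid cells, at 0.998. The number called lower was 4 without WT injured 1, 3 without WT injured 3, 5 without WT sham 1 and 4 without WT sham 2. Of Wnt genes, 2 members rose and 3 fell of 25 measured, neither above the share over all genes (11.6% and 13%), and the median difference was -0.02. The number called lower there was 1 without WT injured 3, WT sham 1 or WT sham 2. Of Hox genes, 0 of 30 measured members were called higher and 7 lower, with a median difference of -0.25, with Hoxa9 and Hoxc4 at -0.55 and -0.55. The number was 4 without WT injured 1 or WT sham 3 and 3 without WT sham 2. Hoxd10, expressed at lumbar levels, was spread over both groups at 8.67, 6.75 and 8.23 in WT injured cords, against 7.23, 8.74 and 5.31 in WT sham cords.

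Genes often used as controls did not all hold still. Of 8 measured, 3 were called higher and 1 lower. Gusb, a lysosomal enzyme, measured 7.95, 7.88 and 8.11 in WT injured cords, against 5.34, 5.66 and 5.55 in WT sham cords (log2 difference 2.46 ± 0.12 (SE), adjusted p = 5.5e-06). Actb, cytoplasmic actin, measured 11.81, 11.96 and 11.91 in WT injured cords, against 11.44, 11.31 and 11.23 in WT sham cords, and B2m and Tfrc are given above. Hprt (Hprt1 on the array) measured 10.36, 10.27 and 10.24 in WT injured cords, against 10.19, 10.49 and 10.23 in WT sham cords, and Tbp, the TATA-binding protein, measured 6.19, 6.17 and 6.26 in WT injured cords, against 6.16, 6.16 and 6.20 in WT sham cords, with differences of -0.01 and 0.03 that did not pass. Among genes that neural tissue does not normally use, the 830 olfactory receptor genes measured had 1 called higher and 79 lower. Both counts were below the shares over all genes (11.6% and 13%). In the dimmest of 4 equal groups of genes, 1.77% were called higher and 5.53% lower, with a median of -0.145. The olfactory share called lower was above that of the dimmest group, and the share called higher was below it. The olfactory median was -0.20, against -0.10 over all genes.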

How the data were processed

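Each of the 6 wild-type samples was 1 mouse on 1 Affymetrix Mouse Exon 1.0 ST array, of 12 arrays in the series. Per the methods and labels, the authors normalized the core probesets by RMA in Partek Genomics Suite and deposited log2 values per probeset, with mm9 named as the build. RMA shrinks low signals toward a floor, so changes of dim genes are understated, and the precision is limited by the number of arrays. Medians of the wild-type arrays lay between 5.79 and 5.84, and arrays of 1 group correlated at 0.988 to 0.992 across genes. Of 194262 probesets, the 179614 that named 1 gene were averaged into 15830 genes (809 with 1 probeset). Array symbols matched RefSeq as they stand for 13745 genes and by synonym for 2021. Groups were compared with limma 3.58.1 in R 4.3.3 on the 6 wild-type arrays (lmFit and eBayes, two-sided, Benjamini-Hochberg adjustment, fold of at least 1.2 and adjusted p under 0.05); the fit was tested on simulated data. The methods use an unadjusted p of 0.01 with the same fold, run here as an alternative. The 65 gene lists and the comparison were chosen with earlier results of these data known, so lists are described by counts and medians and not tested. Named genes were the 10 largest rises and falls with at least 2 probesets and groups apart, and in each list the members with the smallest p, those called against the list's majority and the brightest that did not pass; Epha4, Arg1 and control genes were named in any case. Tmem119, P2ry12, Nox4, Nox1, Ncan, Acan, Smad3, Myh11, Cnn1 and Des, where the rule does not give them, were added after their values were seen. Serping1 was added in the same way. Genes whose probesets name several genes, Gapdh among them, were not used here. Replicate numbers stood in the labels of both groups: deviations from the group means of same-numbered injured and sham arrays correlated at 0.22, 0.11 and 0.11, and each array correlated best with its own number, so a fit with the replicate block was run. Whether the labels' numbers mark shared litters or days is not given in the sources used here. Promoters were matched for 12627 genes.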

Additional observations from a re-analysis of the deposited data

How the results depend on the processing

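The 65 lists and 431 named genes were recomputed under 19 alternatives. The first principal component of the wild-type arrays held 72.8% of the variance with arrays centred on their median and 77.4% with genes above the 25th percentile of level, against 72.4% as reported. The number of genes called was 2229 with the methods' t-test after Benjamini-Hochberg adjustment, 2500 with that test at its unadjusted threshold, 2410 with the median of a gene's probesets, and 2286 to 3418 when 1 array was left out. The number of genes called lower was 980, 1149 and 1017 under the first 3 of these, 3386 with arrays centred on their median, and 957 to 1733 when 1 array was left out. The number of genes called lower by at least 2-fold was 16 with the adjusted t-test, 81 with the median of probesets, 84 with probesets above the median level, 47 with centred arrays, and 23 to 47 when 1 array was left out. The cause was not tested. With the replicate block 4184 genes were called (genes called higher 1923, genes called lower 2261). Of the named genes, 4 lost their call with it (Ccl5, Cnp, Psmd11 and Ugt8a), 17 gained one (Cd22, Ctsk, Dusp1, Egr2, Fbln1, Il1rn, Il8rb and Mia1 higher; Cd5, Chodl, Cx3cl1, Kcna1, Kcnk1, Ndufb8, Pax5, Pmvk and Syp lower), and 0 reversed. The lists whose counts it moved by over 1.5 times were mature oligodendrocytes (1 lower), T cells (2 lower), proteasome (0 higher), and B cells, ependymal cells and Schwann cells (2 higher each). Among named genes, Cd2 reversed to 0.0066 with the median of probesets and Klre1 to 0.0080 with probesets above the median level; neither was called there. Of the 431 named genes, 198 met both of these conditions. Their call, or lack of it, held under every alternative. Their difference within each extraction batch also lay less than the larger group SD from that reported. The number that met the first condition alone is not given. Of the 65 list counts, 29 stayed within 1.5 times. Dim genes are limited by signal over background.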
